A study of Mus musculus with 8 samples.

Results

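Neuropeptide precursor mRNAs were examined in whole retinas of mice with downregulated *Rbfox2*, a gene encoding an RNA-binding protein that regulates splicing and mRNA stability. The genes were those for neuropeptide Y (*Npy*), vasoactive intestinal peptide (*Vip*), somatostatin (*Sst*), substance P and neurokinin A (*Tac1*), cholecystokinin (*Cck*), enkephalin (*Penk*), corticotropin-releasing hormone (*Crh*), the cocaine- and amphetamine-regulated transcript peptide (*Cartpt*) and neurotensin (*Nts*). Of these 9 genes, 8 were matched by symbol to 1 row each among 17500 genes, and *Nts* was not analysed here. All 8 passed the filter on low counts, as did 16797 of the 17500 genes.

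The *Rbfox2*-/- group consisted of 4 mice (M893, M901, M902 and M909), labelled Rbfox2 KD, that were homozygous for the floxed allele (*Rbfox2* fl/fl) and carried a transgene for a tamoxifen-dependent Cre recombinase that is not restricted to the retina. The 4 controls (M833, M894, M896 and M898) were heterozygous *Rbfox2* fl/+ mice, so that they too carried 1 floxed allele. All were C57BL/6J and 6 months old. Tamoxifen is labelled for 4 months in every mouse, controls included. The methods instead describe a short course by gavage, on consecutive days, in young adult *Rbfox2* fl/fl mice with the Cre transgene. In the paper, 4 months is the time between the induced downregulation and the use of these mice for RNA. Each mouse gave 1 poly(A)-selected library, so that differences are set against the spread between mice.

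The libraries held 160630226 to 211283591 counts on genes, so that 3 counts corresponded to 0.0144 to 0.0189 CPM (counts scaled to normalized library sizes), and no 2 libraries agreed within sampling noise. *Rbfox2* itself was at 53.6 to 59.4 CPM in the *Rbfox2*-/- mice and at 144 to 157 CPM in controls. M901 and M902 stood apart on the first principal component (48.8% of the variance) and M909 on the second (19.5%). M901 and M902 were also the only mice with high *Xist*, the RNA of the inactive X chromosome, at 277506 and 275967 counts against 312 to 426 in the others. No control had high *Xist*, so sex read from this RNA was not balanced between the groups for any gene.

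Neuropeptides are cut from larger precursor proteins in the secretory pathway, stored in dense-core granules and released to act on G protein-coupled receptors. In the retina they mark small populations of amacrine cells, the inhibitory interneurons of the inner retina, most of which also use GABA, and of displaced amacrine and ganglion cells. They act over longer distances and times than fast transmitters, and single peptides have been used for decades to tell amacrine cell types apart. In whole-retina RNA, fewer cells of a type and less mRNA per cell cannot be told apart.

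Transcription of many precursor genes depends on the cAMP response element, whose core is TGACG, read as CGTCA on the opposite strand, and whose palindrome TGACGTCA holds the core on both strands. The 250 bases before the transcription start were taken from RefSeq (GRCm38.p6) to show how far the members share this element. An entry was found for 6 of the 8 analysed genes, all but *Penk* and *Crh*. Of 12287 tested genes with an entry, 25.2% held the core on either strand and 2.58% the palindrome. The core was found in 5 of the 6 members, and the palindrome in *Sst* and *Cartpt*. Each match is printed 5′ to 3′ on the gene's strand, with the matched letters in capitals and the distance of their first base upstream of the start. The *Npy* window, given whole, holds neither form.
*Sst*, 48 bases upstream, chr16:23890874-23890903, minus strand: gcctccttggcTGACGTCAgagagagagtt
*Cartpt*, 112 bases upstream, chr13:99900777-99900806, minus strand: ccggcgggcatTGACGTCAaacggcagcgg
*Vip*, 79 bases upstream, chr10:5639128-5639154, plus strand: gatcactactgTGACGtctttcgggga
*Cck*, 47 bases upstream, chr9:121495726-121495752, minus strand: ctgctggactgCGTCAgcactgggtaa
*Tac1*, 43 bases upstream, chr6:7555007-7555033, plus strand: ctctacaggctCGTCAcgcctgagata
*Tac1*, 197 bases upstream, chr6:7554853-7554879, plus strand: ccctaaaattgCGTCAtttcgaacaca
*Npy*, 250 bases before the start, chr6:49822460-49822709, plus strand: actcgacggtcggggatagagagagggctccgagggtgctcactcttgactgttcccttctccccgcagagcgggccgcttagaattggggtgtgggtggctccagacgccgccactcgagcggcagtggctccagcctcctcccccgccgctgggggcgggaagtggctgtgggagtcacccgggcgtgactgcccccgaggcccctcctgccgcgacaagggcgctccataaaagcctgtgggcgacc

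GENCODE release M21 (GRCm38) places longer transcripts of *Sst*, *Tac1* and *Cartpt* over 114, 182 and 250 of these 250 bases, so for them the window lies partly or wholly inside an annotated exon. The members with the core include genes that were higher, lower and similar in *Rbfox2*-/- retinas, as the values below show. The letters describe the sequence only, and binding was not measured.

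The other motif of interest was TGCATG, the letters that Rbfox proteins bind in RNA as UGCAUG. The paper writes the element as (U)GCAUG, and the shorter form GCATG was not searched. In the longest protein-coding GENCODE transcript of each member, on its own strand, it was found in 1 of 8 members, *Npy*. It starts at base 475 of the 566 bases of Npy-201, in the 3′ UTR, and is printed in capitals because it is the single match among the members.
*Npy*, chr6:49829404-49829433 (GRCm38), plus strand: ctgtcccaccaaTGCATGccaccactaggc
Among 180 genes with transcripts within 20% of that length, 12.8% held the letters, and 56.1% of all 14925 tested genes with a protein-coding transcript did so, at a median length of 3135 bases. Introns, where Rbfox proteins mostly act on splicing, were not searched.

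The members differed widely in abundance. Levels of different genes were compared as the deposited FPKM, which is scaled to gene length. *Cartpt* (chr13:99898489-99901091 on GRCm38, the build of all positions here) was the most abundant, at a median of 114 FPKM over the 8 mice (101 to 131) and at the 97.8th percentile of all genes in the table. *Penk* (chr4:4133531-4138819) followed with a median of 46.9 FPKM, but ranged from 4.89 to 96.4. *Cck* (chr9:121489824-121495694) had a median of 18.7 FPKM, *Npy* (chr6:49822710-49829507) 13.6, *Tac1* (chr6:7554879-7565834) 11.9 and *Vip* (chr10:5639218-5647617) 7.74. *Sst* (chr16:23889573-23890958) had 4.30 FPKM. *Crh* (chr3:19693401-19695396) was the least abundant member with 0.770 FPKM, at the 24.4th percentile. The ranges over the 8 mice overlapped between *Penk* and *Cck*, between *Cck* and *Npy* and between *Npy* and *Tac1*, whereas *Cartpt* lay above the other 7 in every mouse and *Vip*, *Sst* and *Crh* each lay below the range of the gene before them. Within a mouse, *Cck* was above *Npy* and *Npy* above *Tac1* in 8 of 8 mice, and *Penk* was above *Cck* in all but M901 and M902. The deposited table does not state the lengths used. Scaled to the exon length of GENCODE instead, 5 of the 7 neighbouring pairs kept their order by median, with *Npy* above *Cck* and *Sst* above *Tac1* and *Vip*. The medians of *Sst*, *Tac1* and *Vip* were then close, at 3.62, 3.59 and 3.48 CPM per kilobase, and their ranges over the 8 mice overlapped.

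The comparison of the groups asked whether loss of *Rbfox2* was accompanied by a different amount of each precursor mRNA. Values are CPM and are compared between mice for 1 gene at a time. *Crh* and *Npy* were higher in every *Rbfox2*-/- mouse than in every control and *Sst* was lower in every one, while *Tac1* was higher in 3 of 4. No member passed an adjusted p of 0.05 (Benjamini-Hochberg) in the quasi-likelihood test of edgeR, a level that 11 genes (0.0655%) passed among all 16797. At an unadjusted p under 0.05 there were 4 of 8 members, against 13.3% of all genes, with 3 higher (all genes 6.42%) and 1 lower (6.87%). The groups did not overlap in 3 members, 2 higher (3.64% of all genes) and 1 lower (3.39%), against 7.03% of all genes in either direction. Altogether 6 members had a positive and 2 a negative log2 fold change (*Rbfox2*-/- against control), with a median of 0.18, and the median of all genes was 0.0016. The members were chosen with earlier results of these data known, so these shares describe the list and do not test it. With M901 and M902 left out, 2 *Rbfox2*-/- mice remained. *Crh*, *Npy*, *Sst* and *Tac1* then had log2 fold changes of 1.14, 0.24, -0.50 and 0.27. Each had an unadjusted p under 0.05 in edgeR, as did 6.01% of all genes. Their adjusted p-values in edgeR were 0.496, 0.715, 0.501 and 0.518.

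**Figure D1:**
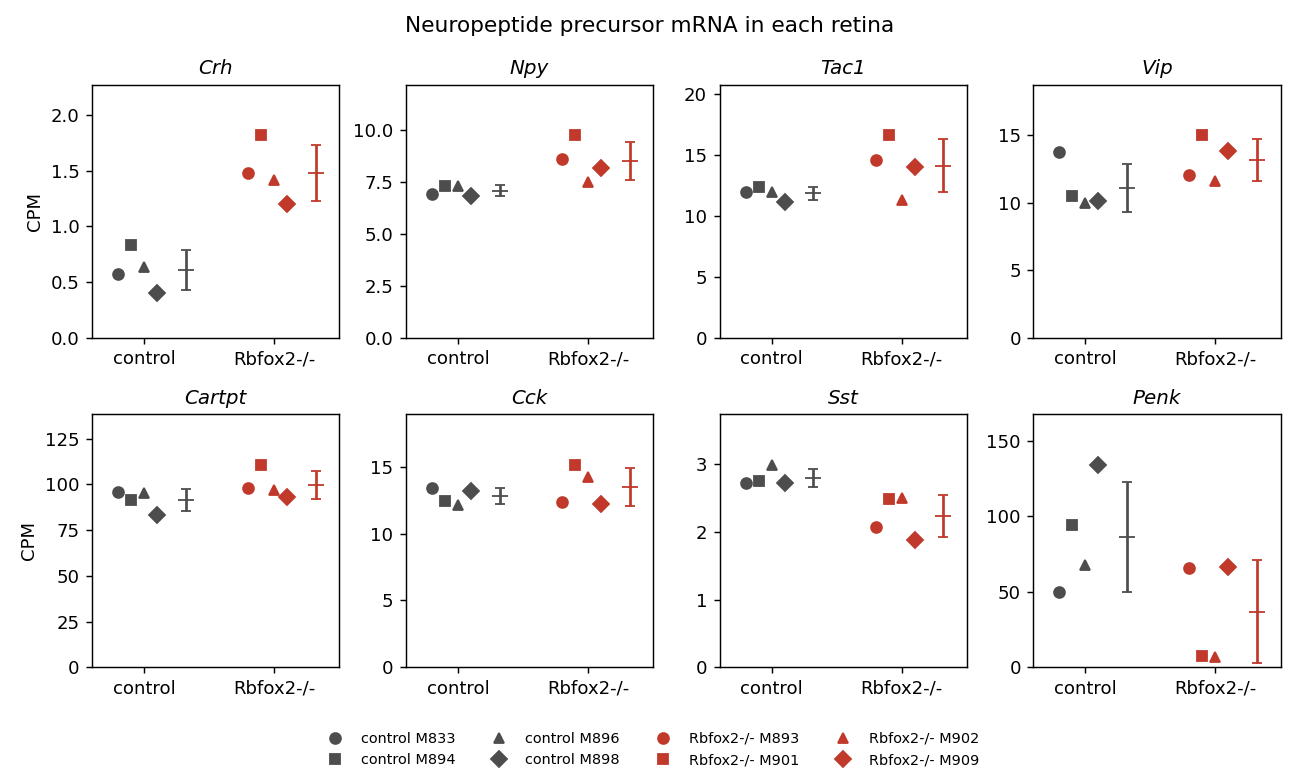
CPM of each precursor (vertical axis, from 0, scaled per gene) in the 4 control and the 4 *Rbfox2*-/- retinas. Each symbol is 1 mouse, and the horizontal tick with its bar gives the mean ± SD (n = 4). The groups are separate for *Crh*, *Npy* and *Sst*, and *Penk* splits the *Rbfox2*-/- group, with M901 and M902 at 7.58 and 6.99 CPM.

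*Crh*, which encodes the releasing hormone known from the hypothalamus and is also a marker of amacrine cell types, had the lowest p of the members. It was at 0.572, 0.831, 0.632 and 0.401 CPM in controls M833, M894, M896 and M898, and at 1.48, 1.82, 1.42 and 1.20 CPM in *Rbfox2*-/- mice M893, M901, M902 and M909. The lowest *Rbfox2*-/- mouse was thus above the highest control, and the mean was 2.43-fold that of controls (1.48 ± 0.256 against 0.609 ± 0.178 CPM, SD, n = 4). These values rest on 71 to 147 counts per control and 225 to 350 per *Rbfox2*-/- library. The exact Poisson interval of the counts was 0.702 to 0.977 CPM in the highest control, M894, and 1.05 to 1.36 CPM in the lowest *Rbfox2*-/- mouse, M909, and covers counting error only. On the log2 scale the difference was 1.28 (standard error 0.22, 95% interval 0.79 to 1.77, adjusted p = 0.0837 by edgeR), and the exact permutation test gave a two-sided p of 0.0286, the smallest that 4 mice against 4 allow. *Crh* passed the adjusted threshold with DESeq2 (adjusted p = 2.14e-05, a level that 2.74% of all genes passed) and with edgeR's likelihood ratio test (adjusted p = 0.000273, passed by 0.976%).

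The genes through which CRH acts gave smaller differences. *Crhr1*, the main CRH receptor, was at 7.73 to 10.6 CPM in controls and 8.46 to 10.8 in *Rbfox2*-/- mice, and *Crhr2* at 2.31 to 2.88 and 2.14 to 2.50, with log2 fold changes of 0.04 (adjusted p = 0.907) and -0.14 (adjusted p = 0.580 by edgeR). *Crhbp*, the secreted protein that binds CRH, is named here after its values were seen. It was at 13.4, 22.2, 17.2 and 27.8 CPM in M833, M894, M896 and M898, and at 21.9, 5.01, 3.72 and 18.6 CPM in M893, M901, M902 and M909. Only M901 and M902 lay below the controls, as was also the case for *Penk*, and the log2 fold change was -0.71 (adjusted p = 0.580 by edgeR).

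*Npy* encodes a peptide of GABAergic amacrine cells, a class in which the study describes Rbfox2 protein and its extensive overlap with NPY staining. It was at 6.91, 7.32, 7.31 and 6.83 CPM in controls M833, M894, M896 and M898, and at 8.61, 9.75, 7.53 and 8.20 CPM in M893, M901, M902 and M909. The *Rbfox2*-/- mice were all above the controls, but M902 exceeded the highest control by little. Means were 8.52 ± 0.933 against 7.09 ± 0.257 CPM (SD, n = 4), a ratio of 1.20. The log2 fold change was 0.26 (standard error 0.081, 95% interval 0.08 to 0.45, adjusted p = 0.244 by edgeR), with an exact permutation p of 0.0286. General GABAergic markers differed by less, with 95% intervals within -0.15 to 0.14 on the log2 scale. *Gad1* and *Gad2*, the enzymes of GABA synthesis, had log2 fold changes of 0.03 (adjusted p = 0.784) and -0.06 (adjusted p = 0.530) in the same edgeR fit, and *Slc32a1*, the vesicular GABA transporter, had -0.01 (adjusted p = 0.926). As a percentage of the summed counts of these 3 genes, *Npy* was at 1.12, 1.29, 1.19 and 1.18% in controls and at 1.40, 1.59, 1.28 and 1.42% in *Rbfox2*-/- mice, in the same order of mice. On this scale M902 fell just within the control range (exact permutation test, two-sided p = 0.0571).

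Among the NPY receptors, *Npy1r* was at 1.58 to 1.82 CPM in controls and 1.60 to 1.97 in *Rbfox2*-/- mice, with a log2 fold change of 0.05 (adjusted p = 0.886 by edgeR). *Npy5r*, at 0.204 to 0.277 CPM in controls and 0.277 to 0.313 CPM in *Rbfox2*-/- mice, had 0.41 (adjusted p = 0.403), and *Npy4r* and *Npy6r* overlapped between the groups. *Npy2r* was at 0.073 CPM or less in every mouse and was not tested.

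*Tac1*, the precursor of substance P and neurokinin A, was at 12.0, 12.4, 12.0 and 11.1 CPM in controls M833, M894, M896 and M898. In M893, M901, M902 and M909 it was at 14.6, 16.6, 11.3 and 14.1 CPM. M902 lay within the control range, whereas the other 3 *Rbfox2*-/- mice were above every control. The difference of 0.25 on the log2 scale (standard error 0.10, 95% interval 0.03 to 0.48) had an unadjusted p under 0.05 and an adjusted p of 0.340 by edgeR. The exact permutation test gave a two-sided p of 0.114. With single mice left out it was between 0.17 (without M901) and 0.35 (without M902), and the unadjusted p stayed under 0.05 in 2 of 8 cases, without M894 and without M902. The neurokinin receptors overlapped between the groups, with log2 fold changes of -0.13 for *Tacr1*, 0.09 for *Tacr2* and 0.003 for *Tacr3* and an unadjusted edgeR p above 0.05 in each.

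*Sst* was the only member lower in every *Rbfox2*-/- mouse. Somatostatin is an inhibitory peptide made by sparse displaced amacrine cells, and its mRNA was at 2.72, 2.75, 2.99 and 2.73 CPM in controls M833, M894, M896 and M898. In M893, M901, M902 and M909 it was at 2.07, 2.48, 2.50 and 1.88 CPM. The *Rbfox2*-/- mean was 79.9% of the control mean (2.23 ± 0.307 against 2.80 ± 0.128 CPM, SD, n = 4), and the lowest values were those of M893 and M909. This was a log2 fold change of -0.32 (standard error 0.11, 95% interval -0.58 to -0.07, adjusted p = 0.284 by edgeR), and without M896 it was -0.29 and no longer had an unadjusted p under 0.05. Relative to the GABAergic counts the groups also did not overlap (0.440 to 0.488% against 0.327 to 0.426%, two-sided p = 0.0286 by exact permutation).

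Of the 5 somatostatin receptors, *Sstr2* had p under 0.05. It was at 4.23, 3.17, 4.23 and 3.73 CPM in M833, M894, M896 and M898 and at 3.10, 3.29, 2.95 and 2.82 CPM in M893, M901, M902 and M909. M901 was above the lowest control, M894, so the groups overlapped. The log2 difference of *Sstr2* was -0.34 (standard error 0.11, adjusted p = 0.268 by edgeR). The other receptors, *Sstr1*, *Sstr3*, *Sstr4* and *Sstr5*, overlapped too, with log2 fold changes of -0.06, -0.11, -0.57 and -0.002 and unadjusted p above 0.05 in the edgeR fit.

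*Vip*, *Cartpt* and *Cck* had positive log2 fold changes that did not pass an unadjusted p of 0.05. *Vip*, which marks several GABAergic amacrine cell types, was at 13.8, 10.5, 10.01 and 10.1 CPM in controls M833, M894, M896 and M898 and at 12.1, 15.0, 11.6 and 13.9 CPM in M893, M901, M902 and M909. A single control, M833, lay within the *Rbfox2*-/- range. With all 8 mice the log2 fold change was 0.24 (95% interval -0.02 to 0.50, adjusted p = 0.404 by edgeR), and without M833 it was 0.36 (adjusted p = 0.124), with an unadjusted p under 0.05.

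*Cartpt*, known in the mouse retina from On-Off direction-selective ganglion cells, was at 95.6, 91.5, 95.4 and 83.3 CPM in controls M833, M894, M896 and M898. In M893, M901, M902 and M909 it was at 98.1, 111, 96.9 and 93.4 CPM. All but M909 were above the highest control, by small margins in M893 and M902. The difference was 0.13 on the log2 scale (95% interval -0.01 to 0.26, adjusted p = 0.404 by edgeR). Summed ganglion cell markers were at 885 CPM in M833, 1066 CPM in M909 and between 1234 and 1399 CPM in the other 6 mice, and their part in the *Cartpt* values was not tested.

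*Cck*, a peptide of amacrine cells, was at 13.4, 12.5, 12.1 and 13.2 CPM in controls M833, M894, M896 and M898. In M893, M901, M902 and M909 it was at 12.4, 15.1, 14.3 and 12.2 CPM, so that M901 and M902 were above every control and the other 2 were within the control range. Its log2 fold change was 0.08 (95% interval -0.09 to 0.25, adjusted p = 0.703 by edgeR), and -0.06 (adjusted p = 0.956) without M901 and M902.

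**Figure D2:**
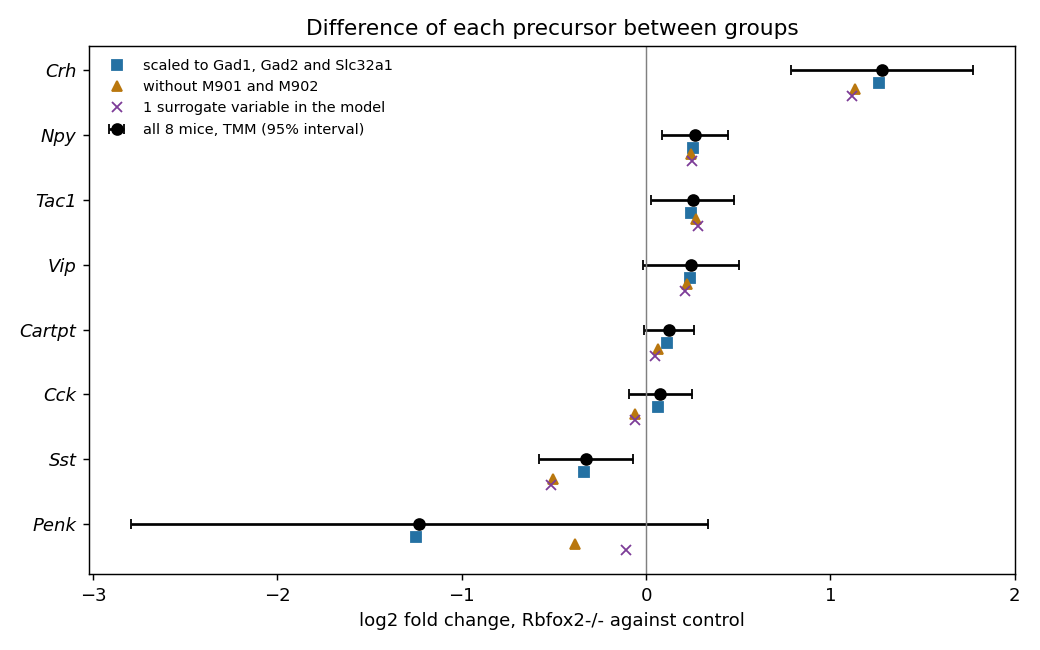
Log2 fold change of each precursor, *Rbfox2*-/- against control. Black circles with bars show all 8 mice with the 95% interval, and blue squares, orange triangles and purple crosses show the same value scaled to the GABAergic genes, without M901 and M902, and with 1 surrogate variable. The interval lies above 0 for *Crh*, *Npy* and *Tac1* and below 0 for *Sst*, and the value of *Penk* moved from -1.23 to -0.39 without M901 and M902.

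*Penk*, the enkephalin precursor, had the largest spread of any member. It was at 49.6, 94.0, 67.6 and 134 CPM in controls M833, M894, M896 and M898, and at 65.8, 7.58, 6.99 and 66.7 CPM in M893, M901, M902 and M909. M893 and M909 lay inside the control range, and M901 and M902 were 9.09-fold lower than these 2 on average. The highest mouse had 19.2 times the level of the lowest, against 1.25 to 4.53 times for the other 7 members. Between the groups the log2 fold change was -1.23 (standard error 0.70, 95% interval -2.79 to 0.33, adjusted p = 0.479 by edgeR), and without M901 and M902 it was -0.39 (adjusted p = 0.940).

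Markers of the ciliary and iris epithelium, which adjoins the edge of the retina, moved with *Penk*. *Best2*, a chloride channel of the ciliary body, was at 5.13, 7.31, 7.12 and 16.0 CPM in M833, M894, M896 and M898 and at 4.26, 0.150, 0.208 and 4.14 CPM in M893, M901, M902 and M909. *Slc13a4*, a sulfate transporter, was at 10.4, 19.7, 12.1 and 21.9 CPM in these controls and at 16.2, 1.48, 1.29 and 13.6 CPM in these *Rbfox2*-/- mice. The pigment gene *Tyrp1* was at 5.13, 24.9, 6.01 and 65.7 CPM and at 12.9, 1.86, 2.89 and 7.26 CPM. For *Best2* and *Slc13a4*, as for *Penk*, M901 and M902 were several-fold below all other mice, and M894 and M898 were the highest of the controls for all 3 markers. The paper reports *Best2* and *Slc13a4* as downregulated in *Rbfox2*-/- retinas, by RNA-seq and by real-time PCR.

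Over the whole list, all 7 markers (*Best2*, *Slc13a4*, *Tyrp1*, *Pmel*, *Mlana*, *Otx1* and *Aqp1*) had a negative log2 fold change, 3 with an unadjusted p under 0.05, and the median was -1.91. Their summed level was 216 to 379 CPM in controls and 187 to 228 CPM in *Rbfox2*-/- mice, most of it from *Aqp1*, which other retinal cells also express and which was at 169 to 204 CPM throughout. None of the defining markers was at 0. The ratio of *Penk* to *Best2* counts was 8.35 to 12.9 in controls, 15.5 in M893, 16.1 in M909, 50.4 in M901 and 33.6 in M902. The part of this tissue in the *Penk* values was not tested. Since M901 and M902 were also the mice with high *Xist*, sex and the *Penk* level cannot be told apart among the *Rbfox2*-/- mice.

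**Figure D3:**
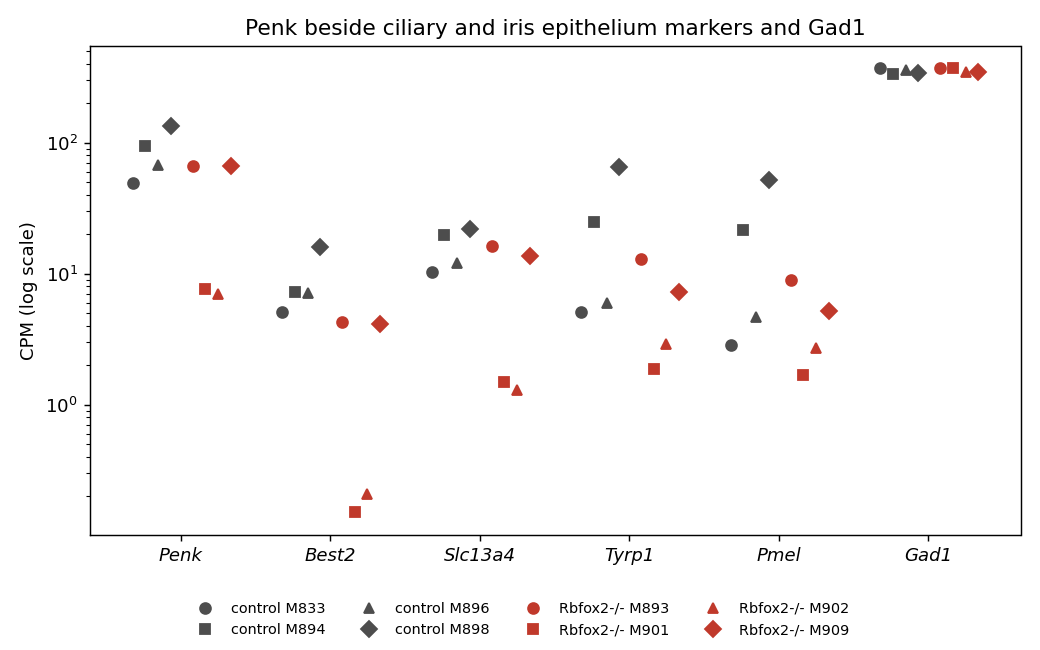
CPM (log scale) of *Penk*, 4 markers of ciliary and iris epithelium and the GABAergic marker *Gad1* in each retina. Grey symbols are controls and red symbols *Rbfox2*-/- mice. M901 (red square) and M902 (red triangle) are the lowest of the 8 for *Penk*, *Best2*, *Slc13a4*, *Tyrp1* and *Pmel*, while *Gad1* is between 332 and 370 CPM in all mice.

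Across members, M901 was the highest of the 8 mice in 6 of 8 genes (*Crh*, *Npy*, *Tac1*, *Vip*, *Cartpt* and *Cck*), whereas it was the highest in 13.2% of all genes. M898, a control, was the lowest in 4 (*Crh*, *Npy*, *Tac1* and *Cartpt*), against 15.4% of all genes. *Npy* and *Tac1* ranked the *Rbfox2*-/- mice in the same order, from M901 over M893 and M909 to M902, and M894 and M898 were the highest and lowest control for both. Some neighbours in these orders were within counting error, as for *Npy* in M894 (Poisson interval 6.92 to 7.73 CPM) and M896 (6.93 to 7.70 CPM). M901 and M902 were the higher pair of the *Rbfox2*-/- mice for *Sst* and *Cck* and the lower pair for *Penk*. Likeness to other genes was measured as Pearson's r of log2 CPM over the 8 mice with the group means taken out, a description without a test. Of 13755 genes with a mean of at least 1 CPM, the 5 whose deviations were most like those of *Npy* were *Atp2a2* (r 0.99), *Tbck*, *2510009E07Rik*, *Il1rapl2* and *Epha4* (0.97), none with p under 0.05 between the groups. For *Crh* the closest included *Ift81* (0.96), *Dnm1*, *Mettl8* and *Gsg1l* (0.94), of which *Ift81* had p under 0.05 (log2 fold change 0.12, adjusted p = 0.276 by edgeR). As the highest of 13755 values over 8 mice, these r are raised by the selection, and shared regulation was not tested.

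The amacrine and ganglion cell types that make these peptides were compared by their markers. Of 15 general and GABAergic amacrine markers, *Lhx9* alone had p under 0.05 and was lower (log2 fold change -0.21, adjusted p = 0.298 by edgeR), and the list median was -0.05. *Chat*, the acetylcholine-synthesizing enzyme of starburst amacrine cells, was at 15.3 to 18.0 CPM in controls and 15.8 to 17.1 CPM in *Rbfox2*-/- mice, whereas the choline transporter *Slc5a7* of the same cells was at 18.5 to 22.6 and 17.6 to 19.6 CPM, with p under 0.05 (log2 fold change -0.22, adjusted p = 0.268 by edgeR). *Th*, the dopamine-synthesizing enzyme of dopaminergic amacrine cells, was at 5.33, 5.30, 5.54 and 4.10 CPM in M833, M894, M896 and M898, and at 6.96, 7.99, 6.09 and 6.80 CPM in M893, M901, M902 and M909. The groups did not overlap for *Th*, which had a log2 difference of 0.46 (standard error 0.11, adjusted p = 0.182 by edgeR), while the dopamine transporter *Slc6a3* overlapped at 0.167 to 0.351 and 0.214 to 0.301 CPM, with -0.11 (adjusted p = 0.894). Of 13 ganglion cell markers, *Isl1* alone had p under 0.05 and was lower (-0.19, adjusted p = 0.116 by edgeR), and *Rbpms* and *Pou4f1* overlapped between the groups. The shares with p under 0.05 were 6.67% of the general and GABAergic amacrine list and 7.69% of the ganglion cell list, against 13.3% of all genes. They were 28.6% of 7 starburst and dopaminergic amacrine markers and 16.7% of 6 markers of glycinergic and VGluT3 (vesicular glutamate transporter 3) amacrine cells. Summed, the latter 6 were at 325.6 to 352.9 CPM in controls and lower, at 313.2 to 324.7 CPM, in every *Rbfox2*-/- mouse. Contents of other tissues differed between single mice, with surface epithelium markers summing to 79.7 CPM in M909 and to 1.25 to 7.18 CPM elsewhere, and their part in the values of M909 was not tested.

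The genes around the members, taken from lists of precursors, receptors, processing enzymes, granule proteins, peptidases and activity-regulated genes, gave 19 genes with p under 0.05 and none with an adjusted p under 0.05 in the same edgeR fit. In each list the share with p under 0.05 was between 12% and 23.5%, beside 13.3% of all genes. The list medians were between -0.06 and 0.09.

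Among 25 other neuropeptide precursors tested of 36 listed, 2 were higher and 1 lower at p under 0.05. *Adcyap1*, the precursor of PACAP, a peptide of melanopsin ganglion cells, was at 2.42, 2.82, 2.88 and 2.61 CPM in M833, M894, M896 and M898 and at 4.09, 4.67, 3.48 and 3.14 CPM in M893, M901, M902 and M909. *Pomc*, the precursor of melanocortins and beta-endorphin, was at 2.48, 2.51, 2.34 and 2.71 CPM and at 3.06, 2.90, 3.38 and 3.66 CPM in the same mice. In both the lowest *Rbfox2*-/- mouse was above the highest control, with log2 fold changes of 0.52 (adjusted p = 0.184 by edgeR) and 0.37 (adjusted p = 0.216). *Tac2*, the neurokinin B precursor, overlapped between the groups, with -0.20 (adjusted p = 0.355).

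Of 26 receptors tested, 1 was higher and 3 lower at p under 0.05. Apart from *Sstr2*, these were the neurotensin-binding sorting receptor *Sort1* (log2 fold change 0.12, adjusted p = 0.268), the nociceptin receptor *Oprl1* (-0.25, adjusted p = 0.297) and the PACAP receptor *Adcyap1r1* (-0.20, adjusted p = 0.354). Values of *Adcyap1r1* were 11.6 to 14.4 CPM in controls and 10.2 to 12.4 CPM in *Rbfox2*-/- mice.

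Of 16 processing enzymes and chaperones, none was higher and 2 were lower at p under 0.05, the prohormone convertase 2 chaperone *Scg5* (log2 fold change -0.12, adjusted p = 0.273) and the glutaminyl cyclase *Qpct* (-0.10, adjusted p = 0.366). Of 15 dense-core granule proteins, *Vgf* (0.28, adjusted p = 0.253), itself a granule protein and peptide precursor, and secretogranin 2, *Scg2* (0.13, adjusted p = 0.353), were higher and the small GTPase *Rab27b* (-0.24, adjusted p = 0.238) was lower. *Vgf* was at 83.1, 85.3, 80.2 and 69.2 CPM in M833, M894, M896 and M898 and at 101, 109, 84.1 and 91.1 CPM in M893, M901, M902 and M909, where M902 lay within the control range. Of 17 peptide-degrading and binding proteins, *Rnpep* (0.19, adjusted p = 0.286) and *Dpp9* (0.14, adjusted p = 0.359) were higher, and neurolysin, *Nln* (-0.25, adjusted p = 0.221), and *Ace* (-0.28, adjusted p = 0.291) were lower.

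Of 21 activity-regulated genes tested, 2 were higher and 1 lower at p under 0.05. *Fosb*, an immediate early gene, had the lowest p among the 6 lists. It was at 3.87, 4.03, 3.20 and 4.14 CPM in M833, M894, M896 and M898 and at 5.04, 5.64, 5.02 and 5.53 CPM in M893, M901, M902 and M909. The groups did not overlap, at a log2 difference of 0.48 (standard error 0.096, adjusted p = 0.116 by edgeR). *Npas4*, a neuronal immediate early gene, had 0.31 (adjusted p = 0.297), and *Crtc1*, a coactivator of CREB, had -0.07 (adjusted p = 0.363). The other 18 had p of 0.05 or above.

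**Figure D4:**
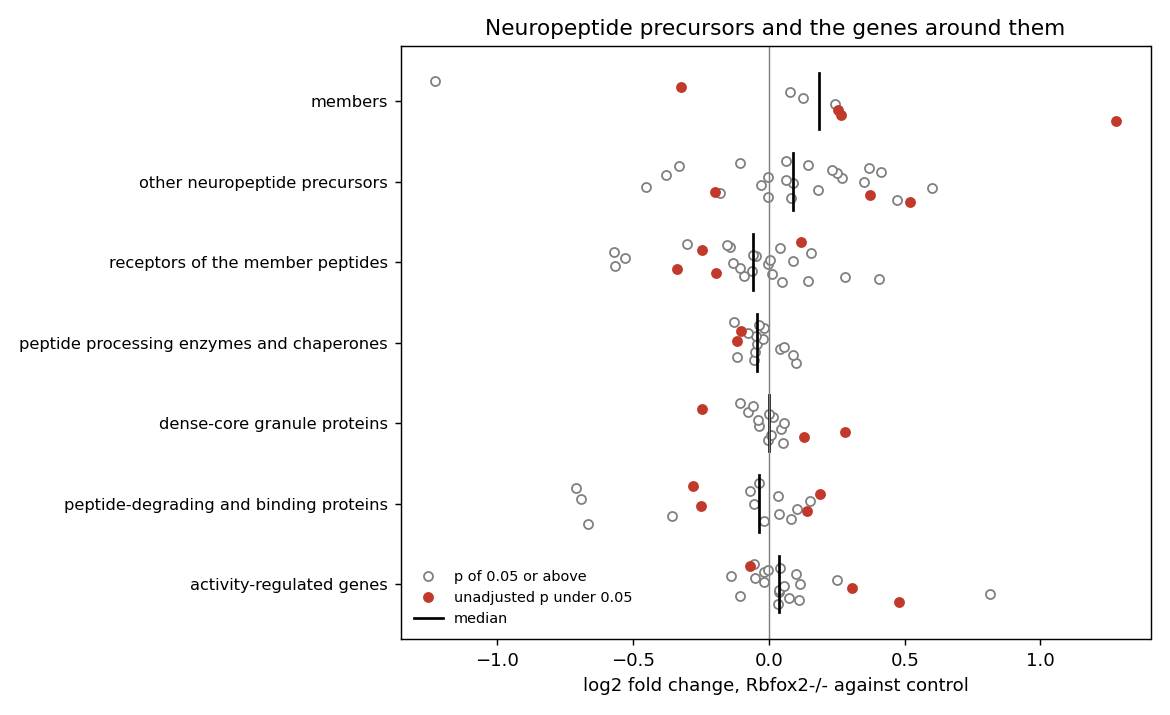
Log2 fold change (*Rbfox2*-/- against control, horizontal axis) of the 8 members and of the genes in 6 lists around them. Each circle is 1 gene, filled where the unadjusted p was under 0.05, and vertical lines are medians. The median is 0.18 for the members and between -0.06 and 0.09 for the lists, and *Crh* (1.28) and *Penk* (-1.23) lie farthest from 0.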

How the data were processed

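Whole-retina poly(A) RNA of 8 mice was sequenced in paired reads. The authors used STAR and mouse mm10 for alignment and HTSeq for counting uniquely mapped fragments on genes, naming both RefSeq and Ensembl models, and deposited these counts and FPKM values in 1 table. The 8 deposited columns of adjusted counts, and the authors' fold changes and p-values, were not used. Groups were taken from the genotype labels.

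Counts were passed to edgeR 4.0.16 (R 4.3.3), filtered by filterByExpr, normalized by TMM and compared by the quasi-likelihood test without covariates, with Benjamini-Hochberg adjustment over 16797 genes. Depth (above) was high, so that the 4 mice per group limited precision. Alternatives were DESeq2 1.42.0, the likelihood ratio test, limma-voom 3.58.1, other scalings and filters, 1 surrogate variable (sva 3.50.0), exact permutation over 70 groupings, and leaving out mice. Log2 CPM for the permutation tests used a pseudocount of 0.01. The procedure was tested on simulated data.

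Members and lists were chosen with earlier results of these data known. Genes named were the members, list genes with p under 0.05 (at most 5 per list), receptors of members with p under 0.05, cell markers that stood beside a result, and genes most like *Npy* and *Crh*. The rule listed 8 markers, and the others, like *Crhbp*, were added after their values were seen. A gene under this rule is not reported here. Motifs were read from RefSeq promoters and GENCODE M21 transcripts.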

Additional observations from a re-analysis of the deposited data

Results flagged for a closer look

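In 2 of the 16 sets of 4 values (8 genes in each group), 1 mouse stood far from the other 3 by Dixon's test at the 95% level, and chance gives about 1 in 20, or 0.8 of 16. Control M833 had 13.8 CPM of *Vip*, with a gap to the next control of 0.87 of the whole range. Control M896 had 2.99 CPM of *Sst*, with a gap of 0.871 of the range. Without M833 the log2 fold change of *Vip* was 0.36 (adjusted p = 0.124 by edgeR, unadjusted p under 0.05), and without M896 that of *Sst* was -0.29 (adjusted p = 0.566 by edgeR, unadjusted p no longer under 0.05).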

How the results depend on the processing

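Over 18 alternatives for each of 8 members, 142 of 144 log2 fold changes kept their sign. The exceptions were those of *Cck*, at -0.0586 with 1 surrogate variable and -0.0597 without M901 and M902. The surrogate variable mainly set M901 (0.56) and M902 (0.64) apart from the other mice (-0.33 to -0.13), so these alternatives overlap. The number of members with an adjusted p under 0.05 was 0 by edgeR's quasi-likelihood test (4 at an unadjusted p under 0.05) and 1, *Crh*, with DESeq2 and with the likelihood ratio test. The adjusted p of *Crh* ranged from 2.14e-05 to 0.496 and its log2 fold change from 1.12 to 1.47, with an unadjusted p under 0.05 in 18 of 18 alternatives. *Npy* had p under 0.05 in 18 of 18 (0.19 to 0.32), *Sst* in 17 (-0.52 to -0.25) and *Tac1* in 11 (0.17 to 0.35). With single mice left out, 2 to 5 members had p under 0.05, the lowest number without M896 (8.84% of all genes tested) and the highest without M902 (9.5%), beside 13.3% of all genes with every mouse. The 6 lists held 19 genes with p under 0.05, and 12 without M901 and M902, where 6.01% of all genes had p under 0.05. The value of *Penk* ranged from -1.85 to -0.11, the latter with 1 surrogate variable. No paired analysis was possible because the mice of the groups share no replicate numbers. Leaving out M901 and M902 leaves 2 *Rbfox2*-/- mice, which are assumed to vary like the controls. The cause of these shifts was not tested.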
